A study of Mus musculus with 2 samples.

Results

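Diplotene cluster 9 was a group of 976 wild-type testis germ cells that the authors' deposited cell table assigned to the diplotene stage and, within it, to cluster number 9. These were 976 of the 2234 wild-type diplotene cells, of the 8420 annotated wild-type cells and of the 17253 annotated cells of both libraries. The other wild-type diplotene cells lay in cluster 1 (656 cells) and cluster 3 (602 cells), and the cells of the first meiotic division (MI, 2344 cells) lay in clusters 14, 8 and 6. Cluster 9 was described across genes against diplotene cluster 1, diplotene cluster 3 and MI, and was placed with the authors' pseudotime score.

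The study compared the testis of a Zfp541-/- mouse line with that of wild-type mice, both C57BL/6 and adult, with 1 library for each genotype and no treatment named. Tetraploid germ cells were sorted by flow cytometry from enzymatically dissociated testis, although the sample titles name whole testis. Libraries were made with the 3′ chemistry of 10x Genomics, version 3, which counts unique molecular identifiers (UMIs) near the 3′ ends of polyadenylated RNA. The sources used here do not say how the Zfp541 allele was made or how many animals gave each library. Only 13 cells of the Zfp541-/- library carried the diplotene name, and 2 of them were in cluster 9, so the description below is of wild-type cells. With 1 wild-type library there was no replicate, no test was made, and each difference stands without a replicate check. The intervals given are at 95% and cover no more than counting error.

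In diplotene, the synaptonemal complex that held homologous chromosomes together in pachytene comes apart, and the homologs stay joined at the sites of crossovers. Spermatocytes at this stage hold a large store of transcripts, many of them for sperm structures that are made only after meiosis. Entry into the first meiotic division follows when cyclin-dependent kinase 1 with its B-type and A1 cyclins, Polo-like kinase 1 and the Aurora kinases become active.

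The wild-type library had 12639 cell barcodes and the Zfp541-/- library had 11580, of which 42 occurred in both. The 4 barcodes of cluster 9 cells that were also in the Zfp541-/- library were among its annotated cells. Without cells that had a shared barcode, 58 genes were at least 2-fold higher and 621 at least 2-fold lower in cluster 9 than in diplotene cluster 3, close to the 59 and 623 of all cells given below. No cell was removed as a doublet here.

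Along the pseudotime score, in which larger values are later, cluster 9 lay between diplotene cluster 3 and the main body of MI. Its median score was -5574, with quartiles of -7068.75 and -4368.75 and a range of -9833 to -2898. Median scores were -9059.5 in diplotene cluster 1, -6638.5 in diplotene cluster 3, -4992 in MI cluster 14, -2885.5 in MI cluster 6 and -2254 in MI cluster 8. Cluster 9 was spread more widely than the other diplotene clusters and overlapped each of them. Of its 976 cells, 114 (11.7%, 9.73% to 13.9%) had a score within the central 90% of diplotene cluster 1. The same count was 330 (33.8%, 30.8% to 36.9%) for diplotene cluster 3 and 274 (28.1%, 25.3% to 31.0%) for MI cluster 14. Later than the median of diplotene cluster 3 were 665 cells (68.1%), and 0 were later than the median of either MI cluster 8 or MI cluster 6. Cluster 9 therefore ran beside clusters 1, 3 and 14 on this score rather than following them as a block. The score was computed by the authors from the same cells, so this position is a description and not an independent dating.

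Cluster 9 cells were uneven in depth, with a median above those of the other diplotene clusters and below that of MI. The median was 12829 UMIs per cell in cluster 9, with quartiles of 9804.5 and 23692. Medians were 10536.5 UMIs in diplotene cluster 1, 11558.5 UMIs in diplotene cluster 3 and 13673.5 UMIs in MI. At least 20000 UMIs were counted in 300 cluster 9 cells (30.7%, 27.9% to 33.7%), against 6 cells (0.915%) of diplotene cluster 1, 25 (4.15%) of diplotene cluster 3 and 268 (11.4%) of MI. The rich cells were concentrated late in the cluster, as the plot of depth against pseudotime shows. At equal depth, cluster 9 cells held fewer genes than the other diplotene cells: after thinning to 8104 UMIs per cell, the median was 2537 genes in 923 cluster 9 cells, 2825.5 genes in 622 cells of diplotene cluster 1, 2740 genes in 579 cells of diplotene cluster 3 and 2574 genes in 2225 MI cells. MI cluster 8 was lower than cluster 9, with a median of 2470 genes. The thinning left out 53 cells of cluster 9, 34 of diplotene cluster 1, 23 of diplotene cluster 3 and 119 of MI. The median share of mitochondrially encoded UMIs was 1.08% in cluster 9, 1.08% in diplotene cluster 1, 0.978% in diplotene cluster 3 and 0.774% in MI.

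**Figure D1:**
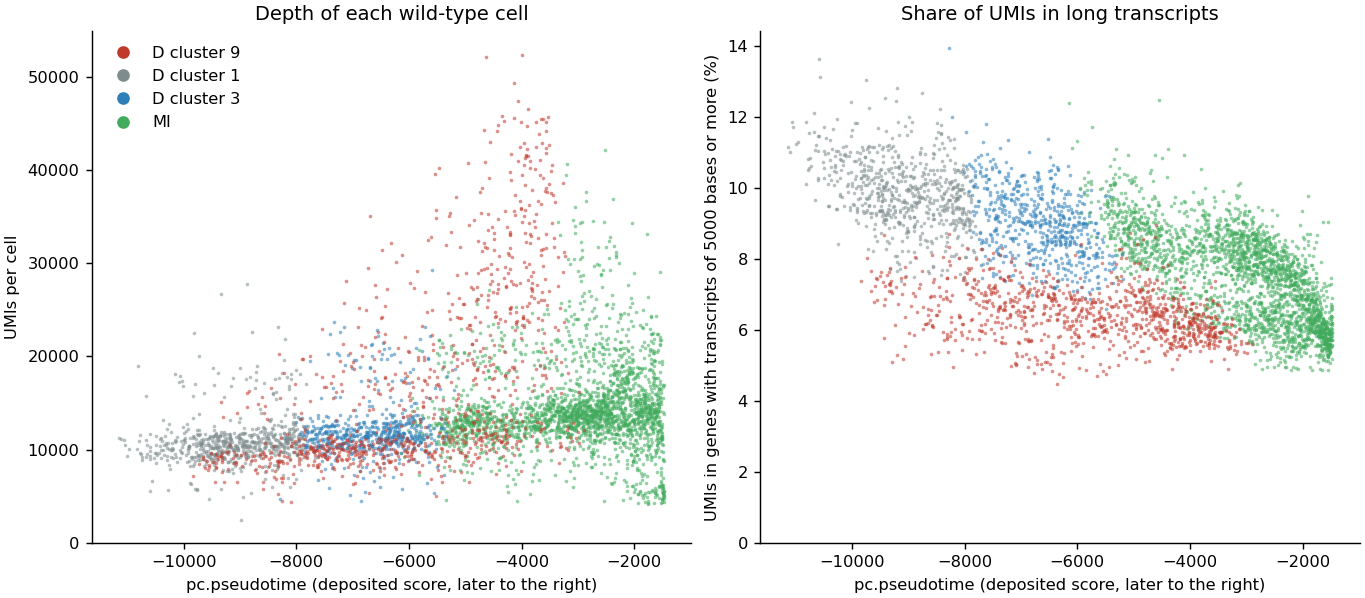
UMIs per cell (left) and percent of UMIs in genes whose longest transcript has 5000 bases or more (right) against the deposited pseudotime score, 1 point per wild-type cell. Of the diplotene cells with at least 20000 UMIs, 300 are in cluster 9, 6 in cluster 1 and 25 in cluster 3, and cluster 9 forms a band with a median of 6.39% long-transcript UMIs, below diplotene clusters 1 (9.87%) and 3 (8.97%).

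Genes with long transcripts took a smaller share of the UMIs in cluster 9. Genes whose longest annotated transcript has at least 5000 bases gave 6.38% of the UMIs of cluster 9, 9.91% in diplotene cluster 1, 8.98% in diplotene cluster 3 and 7.41% in MI. Genes with transcripts under 1000 bases gave 25.5% in cluster 9, 21.1% in diplotene cluster 1, 22.1% in diplotene cluster 3 and 23.6% in MI. Within MI the clusters were split the same way, since the median cell had 6.27% of its UMIs in long transcripts in MI cluster 8 and 8.13% in MI cluster 6. Long non-coding RNAs gave 5.12% of the UMIs of cluster 9, between the 4.15% of diplotene cluster 1 and the 5.38% of MI. X-linked genes, which are silenced in pachytene spermatocytes, gave 0.0167% in cluster 9, 0.0111% in diplotene cluster 1, 0.0117% in diplotene cluster 3 and 0.0165% in MI. The median cell had 0.00975% in cluster 9 and 0.00938% in diplotene cluster 1, and the 95th percentile was 0.0540% and 0.0306%, so the summed shares differed through a tail of cells.

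A finer clustering in the deposited table split cluster 9 into 3 groups of 493, 455 and 28 cells. The 493 cells of fine cluster 18 were early (median score -6890, median 10320 UMIs) and held no cell of another stage. Fine cluster 9 held 455 late cells of cluster 9 (median score -4288, median 22877 UMIs), together with 253 cells of MI cluster 8 and 1 cell of diplotene cluster 3. The 28 cells of fine cluster 23 were the earliest (median score -9416.5) and were grouped with 113 cells of late pachytene cluster 0, 4 cells of diplotene cluster 1 and 1 cell of late pachytene cluster 22.

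The diplotene name was checked with marker lists. UMI sums were scaled to a total of 1000000 UMIs per group (CPM). Markers of diplotene and meiotic division, such as Ccna1 and Ccnb2, summed to 1003 CPM in cluster 9, 783 CPM in diplotene cluster 1, 1055 CPM in diplotene cluster 3 and 1802 CPM in MI, and all 10 were detected in cluster 9. Pachytene markers, led by the testis lactate dehydrogenase Ldhc, summed to 9198 CPM in cluster 9. Their sums were 12378, 12090 and 10808 CPM in diplotene cluster 1, diplotene cluster 3 and MI. Within cluster 9 the sum was 7212 CPM in the 300 cells of at least 20000 UMIs and 11531 CPM in the other 676. The pooled sum was thus lowered by the deep cells. Round spermatid markers summed to 47.6 CPM in cluster 9, and elongating spermatid markers to 203 CPM. The summed level of the division markers in cluster 9 was thus between those of diplotene clusters 1 and 3 and below that of MI. Among the 10 genes with the highest ratio in cluster 9 over all other wild-type cells were Gm35584, Nudt16l1, 1700018L02Rik, Tbca, Smim24, Lpxn, Mrpl37, Anapc11 and Slc35b1, and of all the marker lists only the one given for cluster 9 held any of the 10, namely 1700018L02Rik.

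Markers of somatic testis cells were near 0. Leydig markers summed to 0.822 CPM in cluster 9, peritubular myoid markers to 4.87 CPM, endothelial markers to 0.940 CPM and macrophage markers to 1.70 CPM, and the red cell markers had 2 UMIs in all. Sertoli markers summed to 12.5 CPM in cluster 9 against 2.79, 2.20 and 5.09 CPM in diplotene cluster 1, diplotene cluster 3 and MI, most of it from Defb19 (7.87 CPM) and Clu (3.64 CPM), while Sox9 and Wt1 had no UMI in cluster 9. Of the 8 spermatogonium markers, which summed to 1009 CPM, Dmrtb1 alone gave 999 CPM.

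The 6 markers given for cluster 9 were expressed in it, but they differed in how far they set it apart, and 2 of them were higher in other diplotene or division cells. They had been chosen with these cells in view, so their levels are a description. Among the 19 wild-type groups of at least 50 cells, 3 of the 6 were highest in cluster 9. The long non-coding RNA 1700018L02Rik, annotated as an antisense gene on chromosome 19, had 613 CPM in cluster 9 (601 to 625), 304 CPM in diplotene cluster 1 (291 to 317), 317 CPM in diplotene cluster 3 (305 to 331) and 342 CPM in MI (336 to 348). The nearest group was late pachytene cluster 22, where 1700018L02Rik had 581 CPM. Ppp1r1c, which encodes an inhibitory subunit of protein phosphatase 1, had 61.4 CPM in cluster 9 (57.8 to 65.3), against 27.2, 42.6 and 52.8 CPM in diplotene cluster 1, diplotene cluster 3 and MI. Its level in MI cluster 8, 59.1 CPM, was inside the cluster 9 interval. Scarf2, a scavenger receptor of class F, had 76.7 CPM in cluster 9 (72.6 to 81.0), and the intervals overlapped those of diplotene cluster 1 (70.5 CPM, 64.5 to 76.9) and diplotene cluster 3 (68.8 CPM, 62.9 to 75.1).

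The other 3 given markers did not peak in cluster 9. Gfra4, which encodes a receptor of the GDNF family, had 208 CPM in cluster 9, 162 CPM in diplotene cluster 1, 160 CPM in diplotene cluster 3 and 127 CPM in MI, and its level in late pachytene cluster 22 was 214 CPM. The cadherin Cdh24 had 94.1 CPM in cluster 9 and 82.3 CPM in diplotene cluster 1, but 108 CPM in diplotene cluster 3 and 103 CPM in MI cluster 14. C2cd2, a protein with a C2 domain, had 74.5 CPM in cluster 9 and 82.9 CPM in diplotene cluster 3, with 66.4 CPM in diplotene cluster 1 and 51.5 CPM in MI. All 6 genes ranked 18 or 19 of 19 in the elongating spermatid group.

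**Figure D2:**
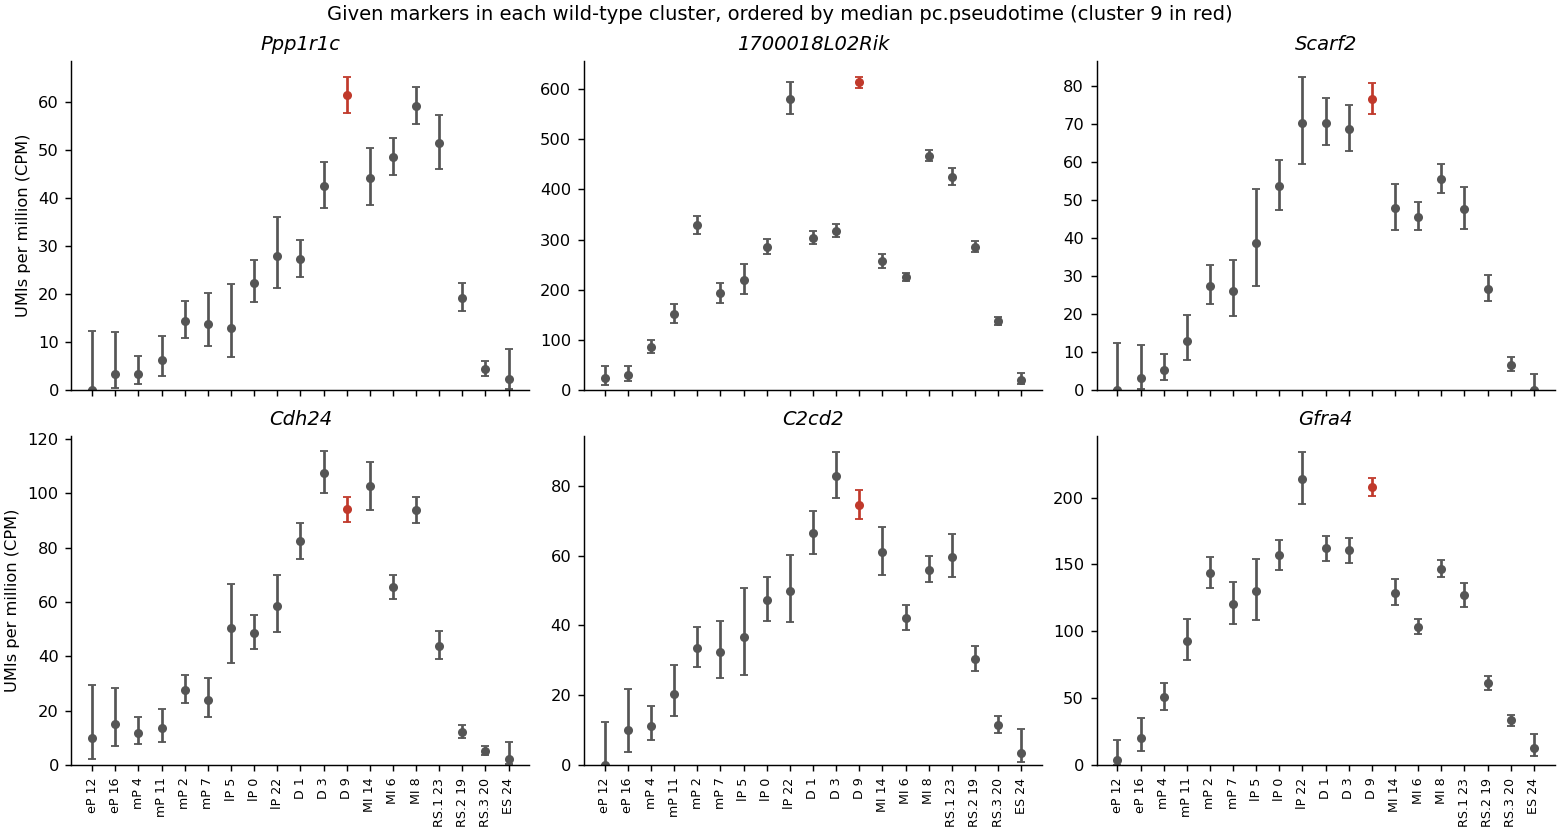
CPM of the 6 given markers (y axis, with 95% Poisson intervals) in each wild-type cluster of at least 50 cells, ordered by median pseudotime (x axis), with cluster 9 in red. Ppp1r1c, 1700018L02Rik and Scarf2 are highest in cluster 9, whereas Cdh24 and C2cd2 are highest in diplotene cluster 3 and Gfra4 in late pachytene cluster 22.

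Few genes were highest in cluster 9 by a wide margin. Of 2646 genes with at least 50 CPM in cluster 9, 767 were above all 3 comparators (diplotene cluster 1, diplotene cluster 3 and MI), but 24 were at least 1.5-fold above all 3 and 2 were at least 2-fold above all 3. These 2 were Naxe and Tmem9b. Naxe, the epimerase that repairs damaged NAD(P)H, had 122 CPM in cluster 9 (117 to 128), against 54.8 CPM in diplotene cluster 1, 50.4 CPM in diplotene cluster 3 and 49.5 CPM in MI. Tmem9b, a membrane protein of lysosomes, had 53.4 CPM in cluster 9 (49.96 to 56.96), against 23.7, 26.1 and 25.7 CPM. Naxe had 144 CPM in the 300 cluster 9 cells of at least 20000 UMIs and 97.4 CPM in the other 676. The latter level is under 2-fold above that of diplotene cluster 1. Neither gene was confined to cluster 9: in late pachytene cluster 22, Naxe had 145 CPM and Tmem9b had 55.9 CPM. Smim24, which encodes a small membrane protein, was the most abundant gene of this kind, with 2262 CPM in cluster 9, 906 CPM in diplotene cluster 1, 938 CPM in diplotene cluster 3 and 1241 CPM in MI.

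The other 9 genes with the highest smallest ratio to the 3 comparators included 1700018L02Rik and covered several functions. Tbca, a chaperone of β-tubulin folding, had 1025 CPM in cluster 9, against 440, 475 and 556 CPM in diplotene cluster 1, diplotene cluster 3 and MI. Anapc11, the catalytic RING subunit of the anaphase-promoting complex, had 311 CPM, against 180, 180 and 179 CPM. The shelterin protein Acd, which binds telomeres, had 79.2 CPM, against 38.5, 41.9 and 37.9 CPM. Proteins of the ribosomes were represented by Mrpl37 of the mitochondrial ribosome and by Rpl6 of the cytosolic one. Mrpl37 had 147 CPM in cluster 9, against 72.7, 72.4 and 84.1 CPM, and Rpl6 had 539 CPM, against 313, 279 and 256 CPM. Rpl6 has processed copies elsewhere in the genome, and how reads were shared with them is not known here. The remaining genes were Mycbp, whose protein binds c-Myc (187 CPM, against 106, 92.3 and 91.3 CPM), Rogdi (61.6 CPM, against 30.7, 33.0 and 23.7 CPM) and 1700037H04Rik (424 CPM, against 192, 198 and 246 CPM). Mycbp, Mrpl37, Acd, Rogdi and Rpl6 were higher still in late pachytene cluster 22, with 219, 185, 101, 82.5 and 556 CPM there.

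Genes with a low point in cluster 9 were more numerous, though counted with a different CPM minimum. The scale also favours low points. The median log2 ratio of all measured genes was -0.29, -0.18 and -0.09 against diplotene cluster 1, diplotene cluster 3 and MI. Of 2524 genes with at least 50 CPM in every comparator, 905 were below all 3 in cluster 9, 218 were at least 1.5-fold below all 3 and 35 were at least 2-fold below all 3. The deepest low point was Fam177a, with 12.5 CPM in cluster 9 (10.9 to 14.3), 78.9 CPM in diplotene cluster 1, 68.4 CPM in diplotene cluster 3 and 56.5 CPM in MI. Kdm1a, the histone H3 lysine demethylase LSD1, had 48.4 CPM in cluster 9 (45.1 to 51.8), against 140, 123 and 125 CPM. Haspin, the kinase that phosphorylates histone H3 at centromeres, had 126 CPM in cluster 9 (121 to 131), against 321, 322 and 326 CPM. Cep126, a centrosomal protein, had 54.1 CPM, against 165, 158 and 138 CPM. The coiled-coil gene Ccdc110 had 23.1 CPM, against 63.4, 60.6 and 57.3 CPM, and 4930430A15Rik had 61.0 CPM, against 157, 173 and 150 CPM. All 6 were also lower in late pachytene cluster 22 than in late pachytene cluster 0, for example 66.6 and 153 CPM for Kdm1a and 14.9 and 61.8 CPM for Fam177a.

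Promoter windows of 3 genes with a peak and 1 with a low point are shown to give the sequence context of genes that set cluster 9 apart. Fam177a and 1700018L02Rik are named only, without a window. Each window runs from 250 bases before to 50 bases after the RefSeq start of the gene, in build GRCm38.p6, 5′ to 3′ on the strand of the gene, with capitals marking matches to the motifs searched. Capitals mark an RFX site in Naxe (chr3:88058446-88058745, minus strand), a CCAAT box in Smim24 (chr10:81392814-81393113, plus strand), a MYB site in Tmem9b (chr7:109752214-109752513, minus strand), and a MYB site followed by a CCAAT box in Kdm1a (chr4:136602674-136602973, minus strand).
Naxe: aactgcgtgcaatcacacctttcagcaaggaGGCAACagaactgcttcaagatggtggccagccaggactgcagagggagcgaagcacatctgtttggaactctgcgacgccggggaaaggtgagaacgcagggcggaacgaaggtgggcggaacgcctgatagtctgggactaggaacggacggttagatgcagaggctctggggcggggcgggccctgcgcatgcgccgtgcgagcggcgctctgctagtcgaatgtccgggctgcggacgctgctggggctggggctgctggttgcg
Smim24: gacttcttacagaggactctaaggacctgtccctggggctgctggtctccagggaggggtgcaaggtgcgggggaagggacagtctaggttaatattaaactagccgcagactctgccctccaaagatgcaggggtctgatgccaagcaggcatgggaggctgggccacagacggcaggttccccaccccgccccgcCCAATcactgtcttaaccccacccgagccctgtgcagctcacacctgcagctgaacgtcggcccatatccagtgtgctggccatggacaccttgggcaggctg
Tmem9b: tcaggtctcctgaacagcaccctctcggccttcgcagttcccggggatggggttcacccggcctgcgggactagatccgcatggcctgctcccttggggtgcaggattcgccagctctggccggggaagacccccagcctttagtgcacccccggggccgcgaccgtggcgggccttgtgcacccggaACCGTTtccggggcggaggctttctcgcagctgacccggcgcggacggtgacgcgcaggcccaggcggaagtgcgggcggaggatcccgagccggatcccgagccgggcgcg
Kdm1a: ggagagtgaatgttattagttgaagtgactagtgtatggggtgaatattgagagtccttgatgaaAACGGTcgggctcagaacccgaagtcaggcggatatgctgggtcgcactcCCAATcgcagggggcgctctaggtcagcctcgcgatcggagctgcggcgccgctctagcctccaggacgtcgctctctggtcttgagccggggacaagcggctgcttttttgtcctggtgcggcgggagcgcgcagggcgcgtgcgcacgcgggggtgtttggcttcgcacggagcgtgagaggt
The motifs were MYB (ACCGTT), the cyclic AMP response element (TGACGTCA), an RFX site (GTTGCC), the CCAAT box (CCAAT) and the TATA box (TATAAA), each on both strands, and none of these is contained in another. A match is a run of letters and not a bound site.

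Across all 27025 RefSeq promoter windows, 3.45% held the MYB letters, 1.88% the cyclic AMP response element, 12.7% the RFX site, 37.9% the CCAAT box and 14.2% the TATA box. Of the 127 windows found for genes at least 2-fold higher in cluster 9 than in diplotene cluster 1, 12 (9.45%) held the MYB letters and 14 (11.02%) the TATA box. In the 1014 windows of genes at least 2-fold lower, these shares were 4.14% and 5.03%, and in the 5333 windows of all genes measured in that comparison they were 5.12% and 6.71%. Against diplotene cluster 3, 2 of 46 windows of higher genes (4.35%) held the MYB letters. The median GC content was 57.7% in windows of the genes higher than in diplotene cluster 1 and 62.7% in windows of the lower genes. These shares rest on few windows and were not tested.

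Against diplotene cluster 1, the earliest diplotene cluster, far more genes were lower than higher in cluster 9. Of 6834 genes with at least 10 CPM in the higher group, 184 (2.69%) were at least 2-fold higher and 1266 (18.5%) at least 2-fold lower in cluster 9. The median log2 ratio over all these genes was -0.29, and with the median of ratios as the scale the counts were 378 higher and 627 lower. The highest ratio among genes of at least 50 CPM was that of A930018P22Rik, a gene of uncharacterised function, with 54.6 CPM in cluster 9 and 2.09 CPM in diplotene cluster 1. The kinase Map4k1 had 141 CPM in cluster 9 and 19.5 CPM in diplotene cluster 1, and the BTB-kelch gene Kbtbd11 had 116 and 19.0 CPM. The testis serine protease Prss39 had 417 CPM in cluster 9 and 98.4 CPM in diplotene cluster 1, and its neighbour in the gene family Prss40 had 55.5 and 8.65 CPM. All 8 of the highest genes, which also included Trim54, Tomm20l and Gtsf2, were higher still in MI, with Map4k1 at 340 CPM and Prss39 at 888 CPM there. They were therefore genes that stood between the early diplotene and the division level in cluster 9.

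The genes lower than in diplotene cluster 1 were led by Hist1h1t, Fam177a and Malat1. Hist1h1t, the testis linker histone H1t of spermatocytes, had 15.7 CPM in cluster 9, 107 CPM in diplotene cluster 1, 68.0 CPM in diplotene cluster 3 and 21.9 CPM in MI. Malat1, a long non-coding RNA retained in the nucleus, had 99.2 CPM in cluster 9, 573 CPM in diplotene cluster 1, 341 CPM in diplotene cluster 3 and 113 CPM in MI. Fsip2, a very large protein of the sperm fibrous sheath, had 59.1 CPM in cluster 9, against 269, 222 and 141 CPM, and the RNA-binding protein Hnrnpa3 had 41.4 CPM, against 188, 138 and 71.6 CPM. The predicted genes Gm3448, Gm35256 and Gm45861 followed, with 29.2, 17.1 and 14.7 CPM in cluster 9 and 145, 80.9 and 63.9 CPM in diplotene cluster 1. Malat1 and Hist1h1t were in cluster 9 nearer to their MI levels than to those of either diplotene cluster.

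Against diplotene cluster 3, the later of the other diplotene clusters on the score, fewer genes differed. Of 6541 genes, 59 (0.902%) were at least 2-fold higher and 623 (9.52%) at least 2-fold lower in cluster 9. The median log2 ratio was -0.18, and with the median of ratios as the scale the counts were 117 higher and 292 lower. Besides A930018P22Rik and 4 of the genes already described as peaks, the highest ratios were those of Insl6, Gml and Tmem107. Insl6, an insulin-like peptide of the testis, had 900 CPM in cluster 9, 391 CPM in diplotene cluster 3 and 724 CPM in MI. Tmem107, a protein of the ciliary transition zone, had 77.9 CPM in cluster 9 and 36.1 CPM in diplotene cluster 3, but 56.4 CPM in diplotene cluster 1. The lowest ratio again belonged to Fam177a, followed by Gm3448 and Hist1h1t, and the list added Crybg3, with 78.2 CPM in cluster 9 and 288 CPM in diplotene cluster 3.

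With cells matched on pseudotime the same kind of difference was seen. The matched comparison set 973 cluster 9 cells against 2257 other late pachytene, diplotene and MI cells of the same score bins, weighted to the cluster 9 distribution, and 76 of 6521 genes (1.17%) were at least 2-fold higher and 449 (6.89%) at least 2-fold lower. Malat1 had 46.6 CPM in cluster 9 and 197 CPM in the other cells between scores of -4500 and -4000, and it was lower in cluster 9 in all 14 bins. Smim24 had 2439 CPM in cluster 9 and 983 CPM in the other cells of the same bin, and it was higher in cluster 9 in all 14 bins. The depth difference ran the other way early in the score: cluster 9 cells had a median of 9018.5 UMIs between -9500 and -9000, against 10299 in the other cells, and 29846.5 UMIs between -4000 and -3500, against 13237. The part of depth in the difference of either gene was not tested.

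**Figure D3:**
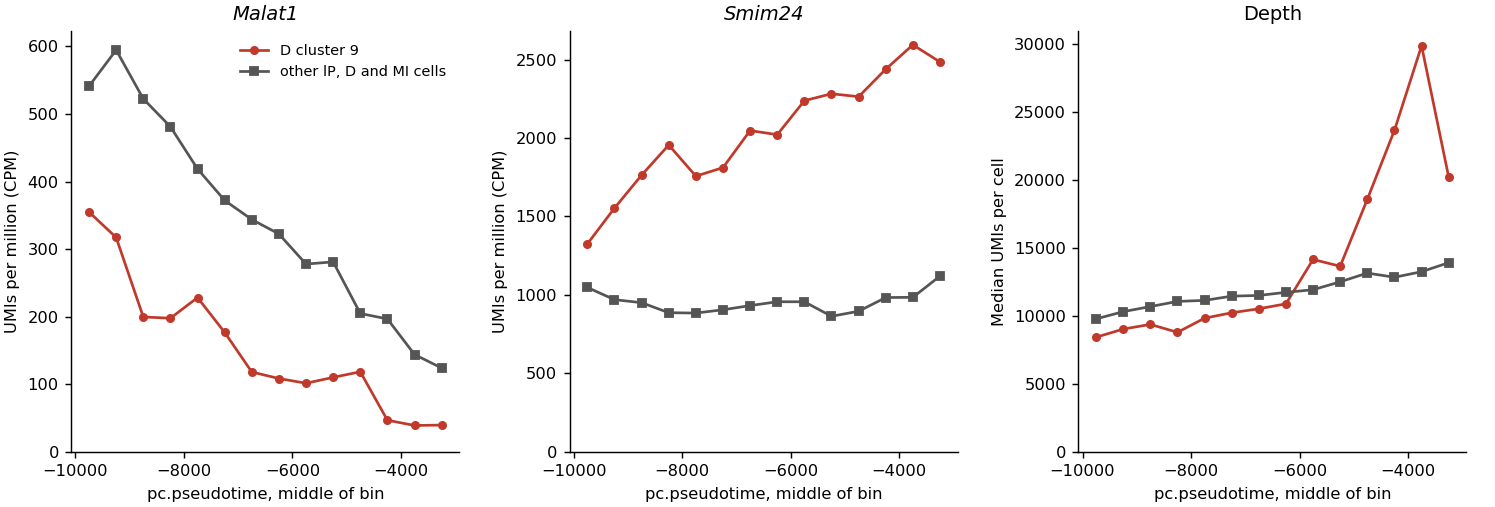
CPM of Malat1 (left) and Smim24 (middle) and median UMIs per cell (right) in cluster 9 and in other wild-type late pachytene, diplotene and MI cells, by bin of 500 units of the deposited pseudotime score. Malat1 is lower and Smim24 higher in cluster 9 in each bin, while depth is higher in cluster 9 only from the bin starting at -6000.

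Against MI, genes in both directions were about equally many. Of 6341 genes, 350 (5.52%) were at least 2-fold higher and 355 (5.6%) at least 2-fold lower in cluster 9, and with the median of ratios as the scale the counts were 431 higher and 266 lower. The highest ratio was that of Tm2d3, with 57.9 CPM in cluster 9 and 9.83 CPM in MI. Tex12 and Syce2, both proteins of the central element of the synaptonemal complex, had 72.8 and 64.7 CPM in cluster 9, against 12.9 and 16.7 CPM in MI. Sumo2, a protein modifier, had 721 CPM in cluster 9 and 210 CPM in MI, and Tex101, a surface protein of germ cells, had 500 and 142 CPM. The U6 RNA-binding protein Lsm8 had 64.1 CPM in cluster 9 and 15.0 CPM in MI, and the cargo receptor Cnih4 had 54.3 and 13.4 CPM. Lsm8, Syce2 and Tex12 had about the levels of diplotene cluster 1 in cluster 9, and diplotene cluster 3 was lower for all 3.

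The genes lower than in MI were led by Ccnb1 and Plk1. Cyclin B1 (Ccnb1) had 21.3 CPM in cluster 9 and 136 CPM in MI, with 5.58 CPM in diplotene cluster 1 and 9.06 CPM in diplotene cluster 3. Plk1, Polo-like kinase 1, had 13.04 CPM in cluster 9 and 82.5 CPM in MI, with 7.12 and 17.4 CPM in the diplotene clusters. Cenpe, the kinesin of kinetochores, had 14.7 CPM in cluster 9 and 54.2 CPM in MI, and Tekt4, a tektin of the sperm tail, had 77.3 and 277 CPM. A930018P22Rik, 1700067K01Rik and 1700034J05Rik were also at least 3-fold lower, with 54.6, 16.5 and 12.04 CPM in cluster 9 and 206, 62.0 and 55.8 CPM in MI. A930018P22Rik and 1700067K01Rik were nearer in fold to MI than to either diplotene cluster, while Plk1 was nearer to diplotene.

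Transcript length went with the direction of the difference. Among the 536 measured genes with a longest transcript of 500 to 999 bases, the median log2 ratio of cluster 9 to diplotene cluster 1 was 0.29, and 8 (1.49%) were at least 2-fold lower. Among the 552 genes of 7000 bases or more the median was -1.05, and 293 (53.1%) were at least 2-fold lower. The medians of the same length classes were 0.22 and -0.80 against diplotene cluster 3, 0.17 and -0.66 against the pseudotime-matched cells, and 0.15 and -0.32 against MI. Genes under 500 bases lay below the class of 500 to 999 bases. Their medians were 0.16 against diplotene cluster 1, 0.01 against diplotene cluster 3, -0.07 against the matched cells and -0.19 against MI. From 500 bases upward the trend was thus present against each comparator and smallest against MI. Not every gene followed it: Hist1h1t, whose transcript has 912 bases, was lower in cluster 9, and Kbtbd11, with 6973 bases, was higher than in diplotene cluster 1. In the shortest class, mt-Nd4l, with 297 bases, was lower in cluster 9. Length also differs between genes of different function, and what part of the difference goes with length itself was not tested.

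**Figure D4:**
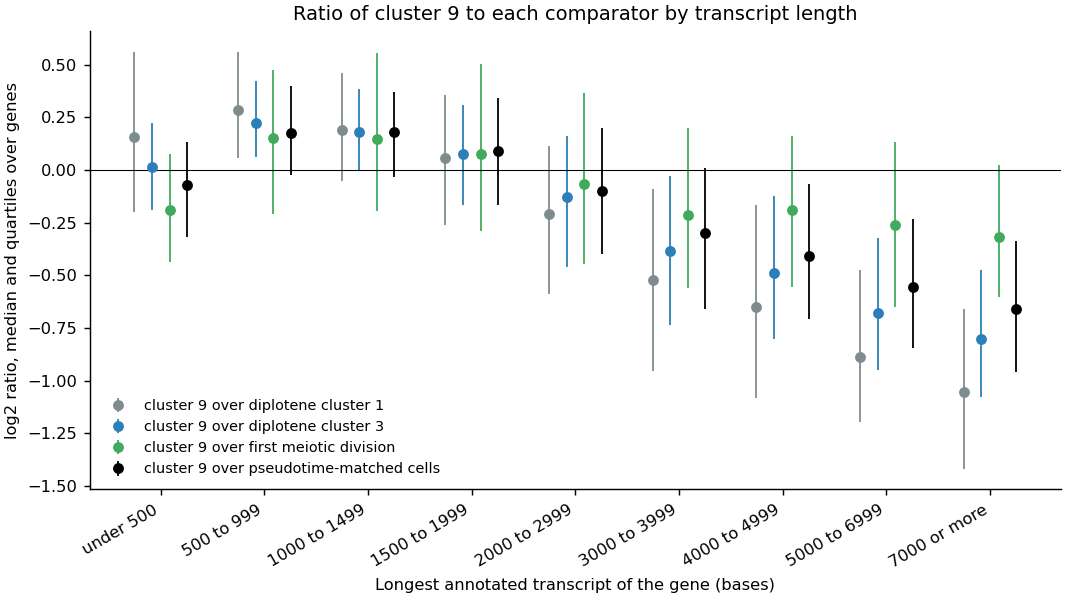
Median log2 ratio of cluster 9 to each comparator (y axis, bars from the lower to the upper quartile over genes) by length of the longest annotated transcript (x axis). The medians go from above 0 for transcripts of 500 to 999 bases to between -1.05 and -0.32 for those of 7000 bases or more. The class under 500 bases lies below that of 500 to 999 bases in each comparison.

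Part of the genes that differed in cluster 9 also differed between other pairs of clusters that share no cell with it. The shares were larger for lower than for higher genes, as they also were over all genes measured in each pair. Late pachytene cluster 22 was compared with late pachytene cluster 0, which had nearly the same median score, -11354 and -11569.5. Of the 623 genes at least 2-fold lower in cluster 9 than in diplotene cluster 3, 596 were measured in that pair, and 361 (60.6%) were at least 2-fold lower in cluster 22, against 9.86% of all 6245 genes measured there. MI cluster 8 was compared with MI cluster 6, and 206 of 543 (37.9%) were at least 2-fold lower in cluster 8, against 4.36% of all 5851 genes. Of the 59 genes higher in cluster 9 than in diplotene cluster 3, 7 of 44 (15.9%) were at least 2-fold higher in cluster 22 than in cluster 0, and 9 of 41 (21.95%) were at least 2-fold higher in MI cluster 8 than in MI cluster 6. Those shares were 0.352% and 0.291% over all genes. For the comparison with diplotene cluster 1, 43.3% of the lower and 10.2% of the higher genes were past 2-fold the same way in late pachytene cluster 22 over cluster 0. In MI cluster 8 over MI cluster 6 these were 25.2% of the lower and 3.89% of the higher genes. Over all genes measured, the shares were 10.4% lower and 0.305% higher in the late pachytene pair, and 4.30% and 0.292% in the MI pair. Naxe had 145 CPM in late pachytene cluster 22 and 77.7 CPM in late pachytene cluster 0, and 67.9 CPM in MI cluster 8 and 31.7 CPM in MI cluster 6. Malat1 had 187 CPM in cluster 22 and 653 CPM in cluster 0, and 54.5 CPM in MI cluster 8 and 126 CPM in MI cluster 6. All of these clusters come from the same library and were separated by the same clustering, so the shares are a description.

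Depth in these pairs is given beside the result. The median was 8392 UMIs per cell in late pachytene cluster 22 and 9535 in late pachytene cluster 0, and 13569 UMIs in MI cluster 8 and 14074.5 in MI cluster 6. Long transcripts had a median share of 6.69% of UMIs in cluster 22 and 9.88% in cluster 0. At least 20000 UMIs were counted in 16.6% of the cells of MI cluster 8 and 6.56% of those of MI cluster 6, and the mean was 14924 and 14378 UMIs. The part of depth in the long-transcript difference was not tested.

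Gene lists showed which functions took part. They are given by counts and medians, beside the background of 2.69% higher and 18.5% lower genes against diplotene cluster 1, 0.902% and 9.52% against diplotene cluster 3, and 5.52% and 5.6% against MI. The medians of all measured genes were -0.29, -0.18 and -0.09 in these comparisons, and no list was tested.

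Genes of cytokinesis and the centriole were lower in cluster 9 than in each comparator. Of their measured members, 12 of 18 were at least 2-fold lower than in diplotene cluster 1, 9 of 17 lower than in diplotene cluster 3 and 3 of 15 lower than in MI, and 0 were higher. Their median log2 ratios were -1.14, -1.03 and -0.72. Prc1, which bundles the microtubules of the spindle midzone, had 102 CPM in cluster 9, 298 CPM in diplotene cluster 1, 259 CPM in diplotene cluster 3 and 150 CPM in MI. Plk4, the kinase of centriole duplication, had 42.0 CPM, against 93.6, 82.4 and 60.2 CPM, and Pcm1 of the centriolar satellites had 85.8 CPM, against 274, 229 and 135 CPM. Condensin and topoisomerase genes had medians of -0.84, -0.84 and -0.91, with 3, 3 and 2 of 7 at least 2-fold lower. Smc2, a condensin subunit, had 34.8 CPM in cluster 9, against 51.9, 62.2 and 101 CPM, and Top2a had 42.2 CPM, against 91.0, 86.5 and 79.5 CPM. Most members of both lists have transcripts over 3000 bases.

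Division kinases and cyclins had medians of 0.08, -0.12 and -0.51, so the list as a whole was near diplotene levels and below MI. Some members, among them Ccna1, Cdk1 and Ccnb1, were above both diplotene clusters and below MI. None of 19 was at least 2-fold higher and 7 were at least 2-fold lower than in MI, whereas 4 were higher and 2 lower than in diplotene cluster 1. Cyclin A1 (Ccna1), which pairs with Cdk1 and Cdk2 in spermatocytes, had 155 CPM in cluster 9, 54.6 CPM in diplotene cluster 1, 136 CPM in diplotene cluster 3 and 390 CPM in MI. Cdk1 had 71.9 CPM in cluster 9, against 34.3, 46.0 and 151 CPM. Aurka had 178 CPM, against 118, 163 and 321 CPM. Nek2, a centrosomal kinase, was below all of them, with 52.6 CPM in cluster 9, against 110, 103 and 96.3 CPM. Some members had higher values than in MI: Arpp19, an inhibitor of protein phosphatase 2A, had 188 CPM in cluster 9 and 97.2 CPM in MI, and Pkmyt1, an inhibitory kinase of Cdk1, had 55.8 and 29.9 CPM, both under the 2-fold threshold.

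Kinetochore and checkpoint genes had medians of -0.49, -0.44 and -0.43, with 4 of 20, 2 of 18 and 4 of 18 at least 2-fold lower and 1 at least 2-fold higher in each comparison. Against both diplotene clusters the higher gene was Spc25, a subunit of the Ndc80 complex, with 36.5 CPM in cluster 9, 6.70 CPM in diplotene cluster 1, 10.7 CPM in diplotene cluster 3 and 84.7 CPM in MI. Against MI it was the checkpoint gene Mad2l1, with 17.03 CPM in cluster 9 and 7.88 CPM in MI. Knl1, the scaffold of the kinetochore, had 20.5 CPM in cluster 9, against 57.4, 55.2 and 32.0 CPM. Among genes of the anaphase-promoting complex and separase control, the median was -0.13 against diplotene cluster 1, 0.01 against diplotene cluster 3 and -0.47 against MI. Anapc11 and securin (Pttg1) had their highest values in cluster 9 among the 4 groups, with 589 CPM for Pttg1, against 340, 426 and 544 CPM. Ube2c, the ubiquitin-conjugating enzyme of that complex, had 40.6 CPM in cluster 9, against 11.4, 24.6 and 90.2 CPM.

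Genes of the synaptonemal complex and of recombination were higher than in MI and mostly within 2-fold of diplotene cluster 3. For the synaptonemal complex and cohesin the medians were -0.44, 0.09 and 0.39, with 4 of 11 at least 2-fold higher than in MI and 0 lower. The transverse filament gene Sycp1 had 94.8 CPM in cluster 9, 165 CPM in diplotene cluster 1, 96.4 CPM in diplotene cluster 3 and 40.0 CPM in MI. The axial gene Sycp2 had 167 CPM, against 396, 324 and 158 CPM. For recombination and crossover genes the medians were -0.51, -0.18 and 0.33, with 4 of 11 at least 2-fold higher than in MI. Ccnb1ip1 (HEI10), needed for crossovers, had 15.2 CPM in cluster 9, against 30.3, 14.01 and 4.27 CPM. The mismatch repair gene Mlh3, which acts in crossover formation, and Brca2 were lower than in both diplotene clusters, with 26.4 and 17.6 CPM in cluster 9, 91.1 and 55.8 CPM in diplotene cluster 1, and 78.1 and 43.5 CPM in diplotene cluster 3.

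Factors of sex chromosome silencing had the lowest median of the lists against diplotene cluster 1, -1.35 over 7 members, and were at -0.65 against diplotene cluster 3 and 0.21 against MI. Atr, the kinase that marks unsynapsed chromatin, had 108 CPM in cluster 9, 274 CPM in diplotene cluster 1, 210 CPM in diplotene cluster 3 and 132 CPM in MI. Mdc1, which spreads that mark, had 39.0 CPM, against 101, 69.8 and 40.0 CPM. The short-transcript histone H2afx differed little, with 166 CPM in cluster 9, against 180, 160 and 121 CPM. In the piRNA pathway, 6 of 18 genes were at least 2-fold lower than in diplotene cluster 1 and 2 at least 2-fold higher than in MI, with medians of -0.90, -0.45 and 0.27. Piwil1 (MIWI), which binds pachytene piRNAs, had 232 CPM in cluster 9, against 494, 326 and 128 CPM, and Gtsf1 had 890 CPM, against 800, 821 and 798 CPM.

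Genes of transcription and translational control were past 2-fold about as often as all genes. Transcription regulators had medians of -0.62, -0.55 and -0.23, with 3, 2 and 1 of 16 at least 2-fold lower and 0 higher. Mybl1 (A-MYB), a master regulator of pachytene genes, had 26.1 CPM in cluster 9, against 73.3, 61.2 and 47.4 CPM, and Sox30 had 20.3 CPM, against 48.8, 45.0 and 31.1 CPM. The general factor Gtf2a1l had 151 CPM, against 82.2, 97.5 and 128 CPM, and Tbpl1 had 980 CPM, against 749, 961 and 1241 CPM. Zfp541 had 28.8 CPM in cluster 9, against 40.6, 47.4 and 39.8 CPM, and Kctd19, whose protein acts with ZFP541, had 71.0 CPM, against 116, 117 and 100 CPM. Among translational regulators, 4 of 18, 1 of 18 and 0 of 17 were at least 2-fold lower and 0, 0 and 1 higher, with medians of -0.73, -0.44 and -0.12. The poly(A)-binding protein Pabpc1 had 488 CPM, against 1114, 951 and 634 CPM.

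Few ribosomal protein and proteasome genes were past 2-fold. None of 78 cytosolic ribosomal protein genes was at least 2-fold different from either diplotene cluster, and 3 were at least 2-fold higher than in MI, namely Rpl6, Rpl14 and Rpl10a. The medians of the ribosomal list were 0.02, 0.11 and 0.33, and 46, 64 and 71 of the 78 genes were above 0. Proteasome genes had medians of -0.22, -0.03 and 0.24, with the large regulators Psmd1, Psmd2 and Psme4 at least 2-fold lower than in diplotene cluster 1. Psme4, the testis proteasome activator PA200, had 77.2 CPM in cluster 9, against 181, 173 and 142 CPM. Among heat shock chaperones, Hspa5 of the endoplasmic reticulum had 123 CPM, against 251, 272 and 260 CPM, and the median was -0.55, -0.56 and 0.06. Mitochondrially encoded genes had medians of -0.23, 0.04 and 0.42. They were split: mt-Cytb had 1625 CPM in cluster 9, against 1446, 1217 and 754 CPM, whereas mt-Nd4l had 78.7 CPM, against 291, 243 and 123 CPM, and mt-Atp8 had 5.64 CPM, against 24.8, 20.2 and 11.6 CPM.

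Genes for sperm structures were mostly below their MI level, though few were past 2-fold. Against MI, 19 of 20 flagellum and axoneme genes, 10 of 11 acrosome genes and 8 of 10 sperm ADAM and chaperone genes had a log2 ratio below 0. Among sperm kinase and CatSper channel genes, 3 of 5 were below 0. The median of all measured genes against MI was -0.09, so the larger part of all genes was below 0 as well. Flagellum and axoneme genes had medians of -0.46, -0.39 and -0.50, with 13, 15 and 19 of 20 below 0, and those at least 2-fold lower than in both diplotene clusters that were lower included Dnah8, a dynein heavy chain of the sperm tail, with 232 CPM in cluster 9, against 864, 682 and 349 CPM. Acrosome genes had medians of 0.16, -0.10 and -0.29. Acrbp, the proacrosin binding protein, had 1010.1 CPM in cluster 9, against 549, 706 and 1087 CPM, while Dpy19l2, which attaches the acrosome to the nucleus, had 56.7 CPM, against 116, 118 and 106 CPM. Among sperm surface proteins and their chaperones, calmegin (Clgn) had 264 CPM, against 555, 529 and 471 CPM. The families of the given markers differed from each other. The 13 measured protein phosphatase 1 genes had medians of 0.20, 0.01 and -0.22, and Ppp1cc, the main catalytic subunit of testis, had 1315 CPM in cluster 9, against 1363, 1368 and 1301 CPM. In the GDNF family, with 3 or 4 measured genes, the ligands Nrtn and Artn had 21.4 and 12.8 CPM in cluster 9, 5.58 and 1.95 CPM in diplotene cluster 1, and 49.4 and 25.8 CPM in MI, while the co-receptor Ret had no UMI in cluster 9. Adhesion genes had medians of -0.60, -0.31 and 0.00 over 6 or 7 measured members.

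**Figure D5:**
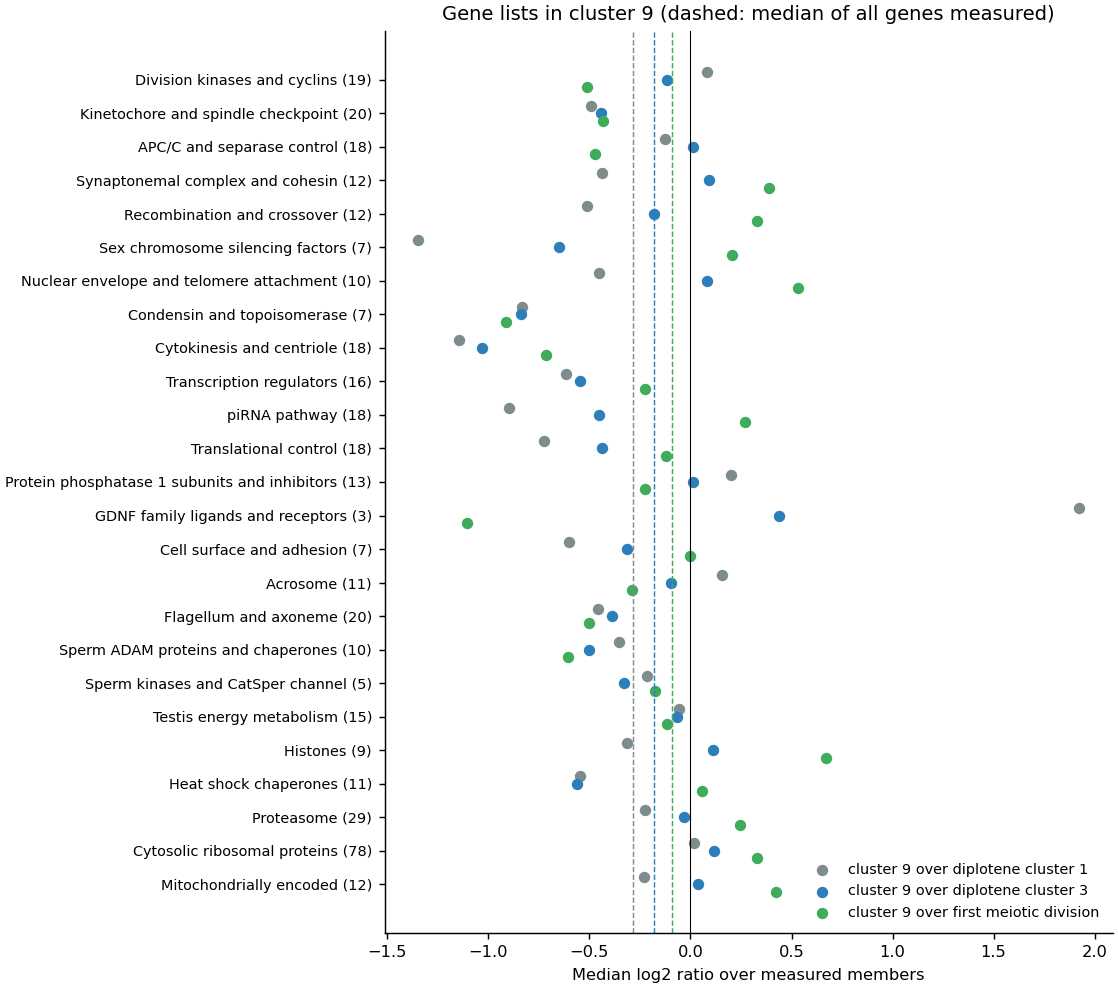
Median log2 ratio over the measured members of each gene list (number measured against diplotene cluster 1 in brackets) for cluster 9 over diplotene cluster 1, diplotene cluster 3 and MI, with dashed lines at the median of all measured genes. Cytokinesis and condensin lists lie to the left of those lines in all 3 comparisons, and synaptonemal, recombination and histone lists lie to the right of 0 against MI.

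Cluster 9 cells also differed among themselves along pseudotime. Its cells were divided by score into an early part (325 cells), a middle part (326 cells) and a late part (325 cells), with medians of 9761, 13101 and 25300 UMIs. Between the late and the early part, 240 of 6375 genes (3.76%) were at least 2-fold higher and 261 (4.09%) at least 2-fold lower. A930018P22Rik had 2.76 CPM in the early, 19.6 CPM in the middle and 99.1 CPM in the late part, a 34.2-fold difference between the late and the early part. Hapln2, a link protein of hyaluronan, had 2.21, 16.9 and 58.4 CPM, and Map4k1 had 23.4, 99.6 and 217 CPM. Spc25 had 10.2, 19.2 and 58.9 CPM, Ccnb1 had 5.24, 14.2 and 32.7 CPM, and Plk1 had 3.86, 9.90 and 19.0 CPM. These genes thus went toward their MI levels but stayed below them, since Ccnb1 had 136 CPM and Plk1 82.5 CPM in MI. Kbtbd11, Prss40, Gm2511 and Slc25a2 were among the 8 highest as well, with ratios of 6.76 to 7.59.

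Falling along the same order were Malat1, with 191, 113 and 50.03 CPM in the early, middle and late part, and several nuclear regulators. Ruvbl1, an ATPase of chromatin remodelling complexes, had 95.2, 53.2 and 30.5 CPM. Supt16, a subunit of the histone chaperone FACT, had 59.0, 42.3 and 21.8 CPM, and Tfdp1, the partner of E2F factors, had 57.7, 34.0 and 20.2 CPM. The other genes of the 8 lowest were mt-Nd4l, Gm15389, Paip1 and Hspa8. The genes with a peak in cluster 9 were flatter: Naxe had 116, 125 and 124 CPM, 1700018L02Rik had 602, 609 and 621 CPM, and Smim24 had 1842, 2173 and 2503 CPM. The share of long transcripts was already low in the early part, at a median of 6.76% per cell, and was 6.50% and 6.07% in the middle and late part. The low share of long transcripts and the high levels of Naxe, Smim24 and 1700018L02Rik were therefore already there in the early part.

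The cells of at least 20000 UMIs differed from the other cells of the late part. In the late part these were 203 cells with a median of 31653 UMIs, and the other 122 cells had a median of 12191 UMIs at nearly the same scores, -3955 and -4174. The genes named here were chosen after their values were seen. Of 6109 genes, 54 (0.884%) were at least 2-fold higher and 151 (2.47%) at least 2-fold lower in the deep cells. A930018P22Rik had 117 CPM in the deep cells and 26.4 CPM in the others, and Gtf2a1l, a germ cell form of a TFIIA subunit, had 223 and 82.9 CPM. Osgepl1, Get4 and Elfn2 had 79.4, 99.6 and 153 CPM in the deep cells and 35.6, 46.1 and 73.1 CPM in the others. Lower in the deep cells were Odf2 of the outer dense fibres, with 291 and 735 CPM, the meiotic spindle protein Shcbp1l, with 156 and 431 CPM, and Adam18, with 78.9 and 190 CPM. Pachytene markers summed to 6959 CPM in the deep cells and 11085 CPM in the others, markers of diplotene and division to 1077 and 1278 CPM, and round spermatid markers to 50.4 and 63.9 CPM. Features that mark cluster 9 were in both kinds of cell, at levels that differed. Malat1 had 47.1 CPM in the deep cells and 62.1 CPM in the others, and Smim24 had 2617 and 2040 CPM. Naxe had 133 CPM in the deep cells and 86.6 CPM in the others, and 1700018L02Rik had 611 and 659 CPM. Long transcripts had a median share of 6.15% and 5.88%. Sertoli markers summed to 23.7 CPM (20.1 to 27.7) in the deep cells and 4.30 CPM (1.73 to 8.86) in the others, with Defb19 at 14.9 and 2.46 CPM and Clu at 7.09 and 1.23 CPM, while Sox9, Wt1 and Rhox8 had no UMI in either. Macrophage markers had 21 UMIs in the deep cells (3.17 CPM, 1.96 to 4.84) and 0 in the others (0 CPM, 0 to 2.27), with overlapping intervals. Elongating spermatid markers summed to 187 and 161 CPM. Over all of cluster 9 they summed to 211 CPM in the deep cells and 193 CPM in the others, but to 609 CPM in the 18 deep cells of the early part. Whether the deep cells are larger cells or more than 1 cell in a droplet was not tested.

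Without any cell of at least 20000 UMIs in any group, 96 genes were at least 2-fold higher and 977 at least 2-fold lower in cluster 9 than in diplotene cluster 1. Against diplotene cluster 3 these counts were 29 and 441. The shorter list of higher genes kept 22 of the 59 genes, and the lower list kept 394 of the 623.

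The most abundant RNAs of cluster 9 were those of late spermatocytes in general. Meig1, a meiosis-expressed gene needed for the sperm tail, led with 10097 CPM in cluster 9, against 9218, 9920 and 10654 CPM in diplotene cluster 1, diplotene cluster 3 and MI. The polyubiquitin gene Ubb had 8451 CPM, the testis lipid-binding protein Fabp9 7462 CPM and Ldhc 7109 CPM. Ldhc was lower than in diplotene cluster 1 (9148 CPM) and diplotene cluster 3 (9142 CPM), and Fabp9 was higher than in both (4780.1 and 5078 CPM). The rest of the 10 highest were Rbakdn, Cox8c, Hspb9, Pebp1, Ropn1l and Gm5617.

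Cells within cluster 9 varied in a small set of abundant RNAs. On counts thinned to 8104 UMIs per cell, the median ratio of variance to mean was 1.06 over 2646 genes in cluster 9 and 1.03 in diplotene cluster 3, where 1 is the value of pure counting noise. The protamine gene Prm2 had a ratio of 11.1 in cluster 9 and 1.48 in diplotene cluster 3, with mean levels of 70.2 and 56.6 CPM. Ldhc had ratios of 5.06 and 1.48, and the tubulin genes Tuba3b and Tuba3a, which are nearly identical copies, had 5.55 and 3.84 in cluster 9 and 1.62 and 1.36 in diplotene cluster 3. The mitochondrial mt-Co1, mt-Co2, mt-Atp6 and mt-Cytb had ratios of 4.15 to 6.03 in cluster 9. Prm2 is a gene of elongating spermatids, and the source of its RNA in cluster 9 was not tested.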

How the data were processed

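The deposited gene matrices hold UMI counts per gene and cell, made by the authors with Cell Ranger 3.1.0 on build mm10 and analysed with Seurat 3.2.0, per the submitters' processing notes. The deposited cell table gives each cell's stage, cluster, mitochondrial and ribosomal UMIs as a percent, and the authors' pseudotime score, whose method the sources used here do not give. Whether counting used strand is not given either, so values of antisense genes such as 1700018L02Rik are uncertain, as are those of near-identical copies.

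UMIs were summed over the cells of each group and scaled to CPM, with no further cell filter and no doublet caller. Summed UMIs were 17029774 in cluster 9, 7165369 in diplotene cluster 1, 7281668 in diplotene cluster 3 and 33993299 in MI. Log2 ratios used 0.5 added counts and genes that reached 10 CPM in either group, and counts of genes used a 2-fold threshold. Intervals are exact 95% Poisson, Clopper-Pearson or conditional binomial intervals. The calculation of ratios was tested on simulated data. Matched bins were 500 score units wide, with at least 5 cluster 9 cells and 20 other cells. Transcript lengths came from GENCODE release 21 (30934 of 31053 genes found), and promoters from RefSeq.

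Genes were named by rule: the given markers, the 8 highest and 8 lowest ratios per comparison at 50 CPM or more, the 12 peaks and 6 low points, the 10 most abundant, the 8 highest and 8 lowest along pseudotime, the 8 most variable, and list members. Symbols shared by more than 1 gene ID (71) were left out. The cluster, its markers and the lists were chosen with earlier results of these data known. Alternatives changed the scaling, the CPM minimum, the weight and depth of cells, mitochondrial filtering and added counts. Leaving out cells of at least 20000 UMIs or cells with shared barcodes, matching on pseudotime, splitting by depth and comparing other cluster pairs were added after seeing the data. Python 3.11.15 was used with numpy 2.4.6, scipy 1.17.1, pandas 2.3.3 and matplotlib 3.10.9.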

Additional observations from a re-analysis of the deposited data

How the results depend on the processing

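Counts of genes at least 2-fold apart depended on the scale, the CPM minimum and the deepest cells. With the median of ratios as the scale, 378 genes were higher and 627 lower than in diplotene cluster 1, and 117 and 292 than in diplotene cluster 3. With a minimum of 50 CPM, the higher and lower counts were 78 and 503 against diplotene cluster 1, 18 and 264 against diplotene cluster 3, and 98 and 137 against MI. With no minimum they were 1846 and 4306, 1603 and 3210, and 3113 and 2244. With each cell weighted equally, 39 genes were higher than in diplotene cluster 3. Without cells of at least 20000 UMIs, 96 genes were higher than in diplotene cluster 1, 29 were higher than in diplotene cluster 3, and 167 were lower in the late than in the early part of cluster 9. With cluster 9 divided into 4 parts in place of 3, 497 genes were lower in the latest than in the earliest. The cause was not tested for the changes with depth and weight. The other 37 of 56 counts against the 3 comparators were within 1.5 times the reported ones. Of 808 log2 ratios of named genes under the alternatives, 546 stayed within their counting interval, 262 moved and 0 changed sign while past the threshold, and of 550 list medians 525 stayed and 25 moved. The limit of these data is the single library per genotype, which gives no replicate error, so that counting intervals understate the error. No paired analysis was possible because there was 1 library per genotype.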

Other observations

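The library labelled Zfp541-/- held 1945 late pachytene cells, against 827 in the wild-type library, and the 6 markers given for cluster 9 could be read in them although only 2 Zfp541-/- cells were in cluster 9. Ppp1r1c had 0.107 CPM in Zfp541-/- late pachytene cells (5 UMIs), against 22.7 CPM in wild-type ones. Scarf2 had 0.917 CPM in Zfp541-/- cells and 56.3 CPM in wild-type cells, Cdh24 had 0.981 and 51.6 CPM, and C2cd2 had 1.60 and 46.6 CPM. Gfra4 had 17.8 CPM in Zfp541-/- cells and 169 CPM in wild-type cells, and 1700018L02Rik had 42.5 and 357 CPM. All 6 were thus lower in the library labelled Zfp541-/-. The share of all genes lower in that library is not given here, so this count has no background beside it. The markers were given for a cluster with only 2 Zfp541-/- cells, and the depth of the Zfp541-/- late pachytene cells is not given here either.

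Genes that peaked in cluster 9 outside that marker list did not share one direction between the genotypes. Smim24 had 1135 CPM in Zfp541-/- late pachytene cells and 1185 CPM in wild-type ones, and 1700037H04Rik had 217 and 219 CPM. Naxe had 146 CPM in Zfp541-/- cells and 93.4 CPM in wild-type cells, while Tbca had 226 and 540.5 CPM. Fam177a, the deepest low point of cluster 9, had 14.5 CPM in Zfp541-/- cells and 54.1 CPM in wild-type cells. Zfp541 itself had 70.6 CPM in Zfp541-/- cells and 35.8 CPM in wild-type cells, so its level does not check the label, and whether the 3′ tags lie in the altered part of the gene is not known here. Each genotype is 1 library, so these values compare libraries and have no replicate check.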
